A study of Mus musculus with 12 samples.

Results

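The genes described here are 44 regulators of chromatin and DNA methylation, given as a list of names of enzymes and complex subunits, a rule that uses no measured level. The list was nevertheless chosen with earlier results of these data known. Shares of members set against all genes may therefore not be independent of the data. All 44 symbols were found among the 21729 genes of the count table. They were read in 12 single cultured cardiac progenitor cells (CPCs). These were c-Kit+ cells that were depleted of blood lineages and magnetically sorted from the non-myocyte fraction of hearts of FVB female mice at an age of 12 weeks. They were grown on gelatin in a serum medium with leukemia inhibitory factor, basic fibroblast growth factor and epidermal growth factor, and were picked by hand after 5 passages. Cells of a pair of hearts were pooled for each preparation, no treatment was applied, and every cell belongs to the 1 group of the series. The 12 cells are therefore not replicates of a condition, no test between groups exists, and each spread or correlation below describes these cells.

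Chromatin regulators set which genes a cell can read. DNA methyltransferases write methyl groups on cytosine and TET enzymes oxidise them, Polycomb complexes 1 and 2 (PRC1 and PRC2) silence developmental genes through marks on histones H2A and H3, and other enzymes add or remove methyl and acetyl groups or move nucleosomes. Several of them, among them Dnmt1, the methyltransferase that copies methylation onto new DNA strands, work at replicating DNA and are known from other dividing cells to be made mainly around S phase. In cardiac cells the family is best known for the class IIa deacetylases, which bind Mef2 factors, and for the remodellers that act with cardiac transcription factors.

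The libraries held between 3453708 and 5690184 counts, so a gene without counts could lie at up to 0.869 CPM (counts per 1000000 counts of the cell) in the shallowest cell and 0.527 CPM in the deepest, the level of 3 counts. Reads carry no molecular identifiers, so such limits, and the intervals given later, describe the error of counting and nothing else. Cells 7, 8, 10, 11 and 12 were the deepest libraries but had fewer genes with counts, 10022 to 10181, against 11216 to 11950 in the other cells. Cells 3, 10 and 11 stood furthest apart in their summed cell type markers. In cell 10 the summed endothelial markers reached 9810 CPM against at most 58.5 CPM elsewhere, with 8 of 10 markers counted, and its median similarity to the other cells was the lowest (Pearson's r over genes of 0.796). In cell 3 the summed haematopoietic markers reached 1623 CPM against at most 75.8 CPM elsewhere, with 5 of 10 markers counted, as in cells 1 and 2. In cell 11 the summed mural markers, of smooth muscle and pericytes, reached 3737 CPM against at most 172 CPM elsewhere. Only 3 of 10 mural markers were counted there, which is the median over cells, and cell 6 had 5. The mural sum of cell 11 thus rests on few genes. All 10 fibroblast markers were counted somewhere, and their sum ran from 761 to 7573 CPM, whereas 7 of 10 cardiomyocyte markers had no counts in any cell. The main correlations and spreads are also given without cells 3 and 10, the least similar to the others, and without all of cells 3, 10 and 11.

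Most of the regulators were expressed in every cell, at levels in the middle of the transcriptome. Of the 44 genes, 33 had a count in all 12 cells, where 35.3% of all genes in the table did (many of which had no counts anywhere). Zeros of Ezh1, Ezh2, Jarid2, Suv39h2 and Cbx2 all lay in cells 7, 8, 10, 11 and 12, which had fewer genes with counts. Those of Dnmt3a, Dnmt3b, Tet1, Cbx7 and Hdac9 lay in other cells too, and that of Cbx8 only in cell 5. The part of the number of genes counted in these zeros was not tested. At 10 CPM or more in all 12 cells there were 15 members, against 21.5% of all genes. Per kb of exon the median member was at 2.74 CPM, and the median of 14208 genes with a count and a known length was at 3.24 CPM, which placed the members' median at percentile 47.2. Together the 44 genes took between 925 CPM in cell 3 and 2068 CPM in cell 5, with a median of 1635 CPM over cells. The next lowest sum after cell 3 was 1325 CPM, in cell 10.

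**Figure D1:**
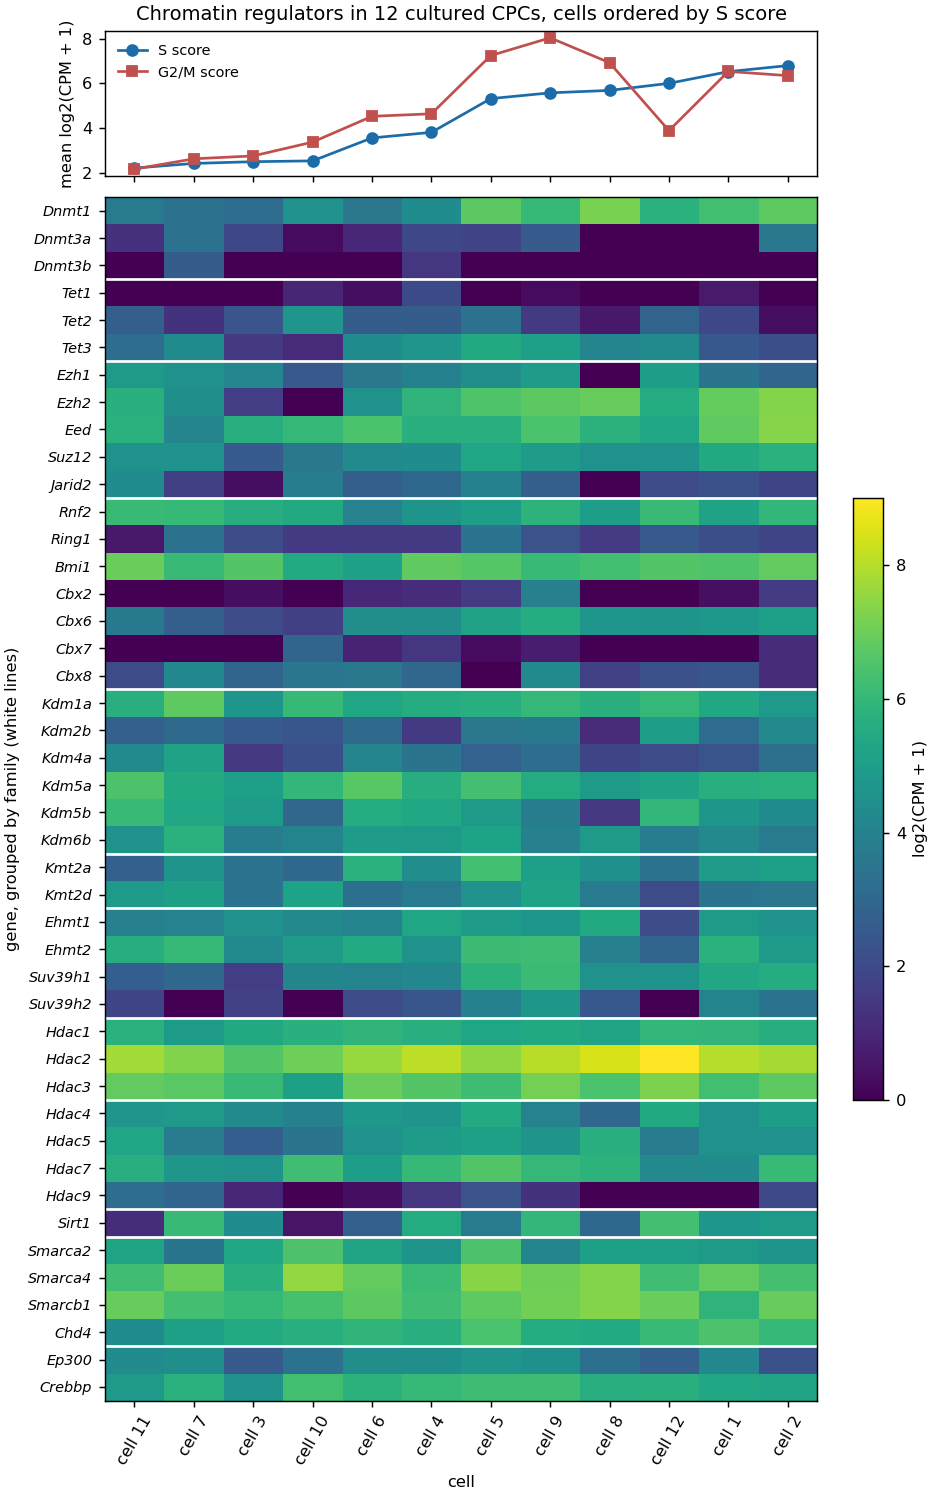
Heat map of expression, log2(CPM + 1), for the 44 regulators (rows, grouped by family with white lines between families) in 12 cells (columns, ordered by S score), below a line plot of the S and G2/M scores of the same cells in mean log2(CPM + 1). Hdac2 is the brightest row in most cells (Bmi1 is brighter in cell 3 and Smarca4 in cell 10), Dnmt3b, Tet1, Cbx2 and Cbx7 are mostly dark, and Dnmt1, Ezh2, Suv39h1 and Cbx6 are brighter in the cells with high S scores.

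A group of members was high in the cells rich in replication transcripts, and a similar group, given further below, followed the G2/M score. For each cell an S score and a G2/M score were taken as the mean log2(CPM + 1) over 43 genes of S phase and 54 genes of G2/M, none of which is a member. The S score ran from 2.22 in cell 11 to 6.79 in cell 2, with cells 3, 7, 10 and 11 between 2.22 and 2.54. Pearson's r of each gene's log2(CPM + 1) with the S score over 12 cells was computed for the 37 members, and 9701 genes in all, with a mean of at least 5 CPM and counts in at least 3 cells. An r of at least 0.6 was found for 7 members, Dnmt1, Suv39h1, Cbx6, Ezh2, Suz12, Chd4 and Hdac2, and for 8.76% of all genes so filtered. The median r was 0.17 over members and 0.06 over all genes. The labels do not say whether the cells came from 1 culture, and their libraries differ in depth and in the share of counts that other genes take, so each r is a description and carries no p. No member had an r of -0.6 or less, as 2.14% of all genes did, although without cells 3 and 10 the demethylases Kdm4a (-0.82) and Kdm6b (-0.67) did, and without cell 11 as well these were -0.80 for both. The share of all genes past that limit was not computed for fewer cells.

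Dnmt1 (chr9:20907209-20959888, mm10) had the highest r with the S score, 0.90. Its values in cells 1 to 12 were 77.3, 107, 8.17, 19.9, 105, 10.9, 9.51, 144, 64.8, 22.7, 11.7 and 52.5 CPM. The 6 cells with the highest S scores (1, 2, 5, 8, 9 and 12) were all at 52.5 CPM or more and the other 6 at 22.7 CPM or less, so the cells fell into high and low values without overlap. Suv39h1 (chrX:8061171-8074760), which writes the H3K9 methyl mark of constitutive heterochromatin, followed with an r of 0.83. It was lowest in cell 3 at 2.11 CPM, had a median of 20.1 CPM and was highest in cell 9 at 70.0 CPM, with cells 7 and 11 next to the lowest, at 7.23 and 5.41 CPM. Of its exonic bases, 14.6% lie in an antisense gene, Gm14820, and the strand rule of the counting is not given, so part of its reads could belong to that gene. Cbx6 (chr15:79823896-79834688), a PRC1 subunit that reads methylated H3K27, had an r of 0.81 and ran from 2.25 CPM in cell 10 through a median of 22.6 CPM to 46.7 CPM in cell 9. Of its exonic bases, 5.31% lie in Npcd on the same strand.

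Ezh2 (chr6:47530139-47595341), the main catalytic subunit of PRC2, had an r of 0.72 with the S score. It had no counts in cell 10, which allows up to 0.563 CPM there, the level of 3 counts, and 8 counts in cell 3, or 2.11 CPM. In the other cells, taken in the order 1, 2, 4, 5, 6, 7, 8, 9, 11 and 12, it was at 118, 162, 57.8, 91.5, 23.6, 21.3, 121, 106, 51.8 and 45.2 CPM. It was thus abundant in most cells, cell 11 included, and missing or nearly so in cells 3 and 10. Suz12 (chr11:79993106-80034123), the PRC2 subunit that the complex needs for its assembly, had an r of 0.71, with 5.01 CPM in cell 3, a median of 23.6 CPM and 52.6 CPM in cell 2. Chd4 (chr6:125095981-125130591), the ATPase of the NuRD remodeller, had an r of 0.70 over a narrower range, from 20.0 CPM (cell 11) to 89.8 CPM (cell 1). Hdac2 (chr10:36974544-37001889), a class I deacetylase, had an r of 0.65 and ran in cells 1 to 12 at 258, 220, 93.3, 278, 183, 197, 158, 349, 260, 130, 216 and 515 CPM. Cell 12 was far above and cells 3 and 10 were below all others.

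These values held to different degrees when cells were left out. Without cells 3 and 10, r with the S score was 0.90 for Dnmt1, 0.86 for Suv39h1, 0.80 for Cbx6, 0.78 for Ezh2, 0.66 for Suz12, 0.75 for Chd4 and 0.49 for Hdac2. Eed, a PRC2 subunit, was then at 0.60. Without cell 11 as well, the values of Dnmt1 to Hdac2 were 0.89, 0.80, 0.77, 0.85, 0.70, 0.61 and 0.49 in the same order, and Eed reached 0.68. Over each of 12 cells left out in turn, the lowest r was 0.89 for Dnmt1, 0.80 for Suv39h1, 0.79 for Cbx6, 0.68 for Ezh2 and 0.59 for Hdac2. By ranks (Spearman's rho) Dnmt1 had 0.81, Ezh2 0.76 and Suz12 0.54. Without cell 12 the number of members at 0.6 or more was 11 instead of 7, but the share of all filtered genes was not computed without that cell. Cell 12 had an S score of 5.999 beside a G2/M score of 3.89, and both scores were themselves correlated over the cells (r of 0.81).

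**Figure D2:**
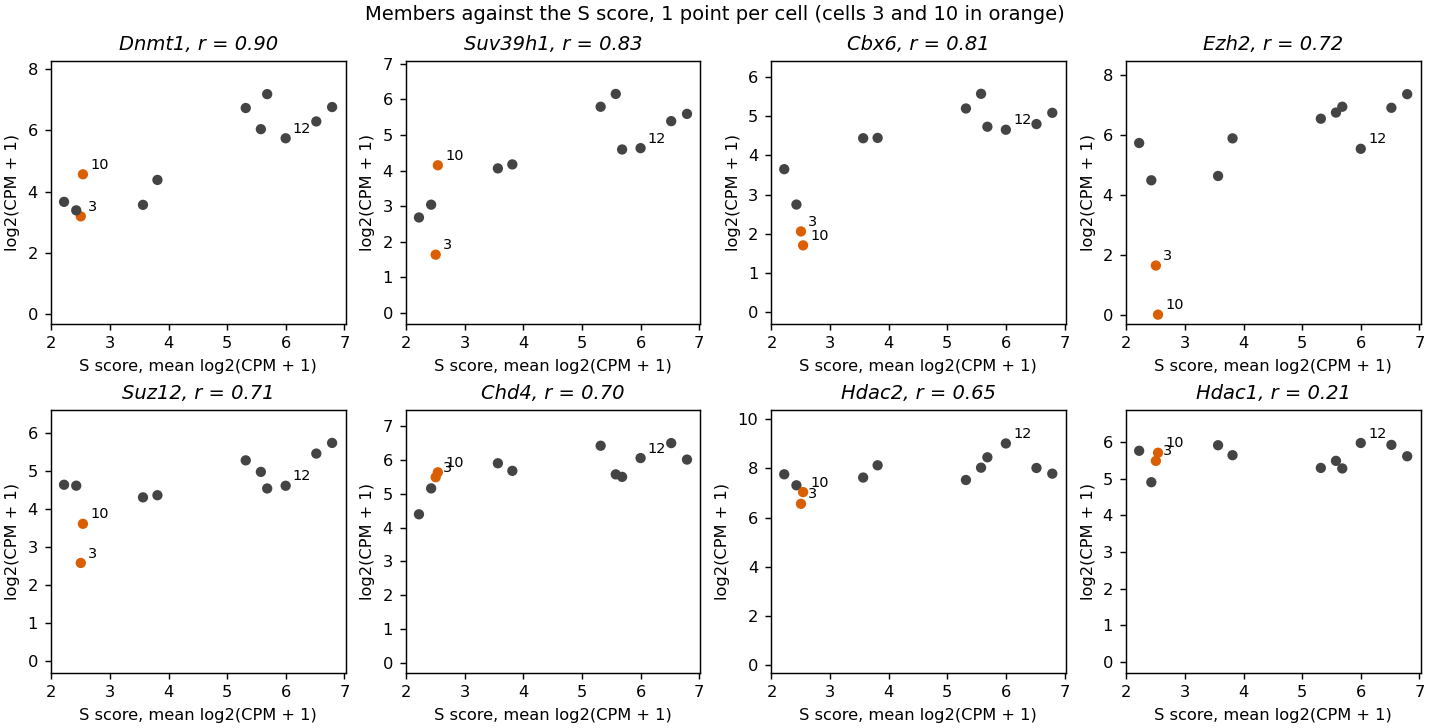
Each panel plots log2(CPM + 1) of 1 gene against the S score (mean log2(CPM + 1) over the S phase list), with 1 point per cell, cells 3 and 10 in orange and cells 3, 10 and 12 numbered. Dnmt1 to Hdac2 are the members with an r of at least 0.6, and Hdac1 (r of 0.21) is shown beside them as the member with the smallest spread.

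The promoters of this group were read next, since E2F factors are known to switch on S phase genes through short GC-rich sites. RefSeq promoters on GRCm38.p6 (250 bases before to 50 after each start) were matched for 39 of 44 members. Promoters of Hdac1, Hdac3, Kdm5a, Kdm6b and Cbx2 were not analysed here. The motif letters, too, were fixed with earlier results of these data known. The letters TTTCCCGC were searched on both strands, as were TTTCGCGC with TTTGCCGC and also TTTGGCGC. Exactly 4 members held at least 1 of these, Dnmt1, Ezh2, Suv39h1 and Suz12, which is 10.3% of the 39, against 2.60% of all 27025 genes with a promoter and 5.15% of the 7668 such genes that passed the expression filter. Counted per promoter, since a gene can have several, the shares were 7.41% for members and 4.20% for filtered genes. The order against filtered genes turned with shorter motifs, since TTCCCGC or TTGGCGC stood in 5 members (12.8%), in 15.2% of filtered genes and in 7.79% of all genes with a promoter. The matched windows are given because all 4 genes belong to the group with an r of at least 0.6. They run 5′ to 3′ on the gene's strand, with the motif in capitals (on the other strand it reads as the reverse complement).
Dnmt1, upstream match: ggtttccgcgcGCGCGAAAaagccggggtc
Dnmt1, match after the start: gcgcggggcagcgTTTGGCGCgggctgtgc
Ezh2: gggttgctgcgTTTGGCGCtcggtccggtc
Suv39h1: ggaaggccggcGCGGCAAAcgtgggggccg
Suz12: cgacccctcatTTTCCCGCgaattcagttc

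The windows lie at chr9:20952824-20952853 and chr9:20952574-20952603 for Dnmt1 (minus strand), at chr6:47595009-47595038 for Ezh2 (minus), at chrX:8074407-8074436 for Suv39h1 (minus) and at chr11:79992876-79992905 for Suz12 (plus). Counted from the RefSeq start of the transcript, with -1 as the base before it, the first base of the motif stood at -219 and 34 in Dnmt1, at 4 in Ezh2, at -64 in Suv39h1 and at -219 in Suz12. The RefSeq start used for Suv39h1 did not lie near the beginning of a transcript in GENCODE vM21, whereas those of the other three did. Over all 395 filtered genes with such a motif, 24.6% had an r of at least 0.6 with the S score, against 7.92% of 7273 filtered genes without one. When genes of the S and G2/M lists were left out, the shares were 21.8% and 7.31%. Among members without the motif, 3 of 29 had an r of at least 0.6 (Cbx6, Chd4 and Hdac2). A match is only a run of letters and does not show that a factor binds there. Genes with and without a motif were not matched for GC content or CpG ratio, and a part of E2F in these values was not tested. Member promoters had a median CpG ratio (CpG observed over that expected from the bases) of 0.845 and a GC content of 67.7%, where the filtered genes had 0.779 and 61.3%.

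The G2/M score gave a similar but not identical group. An r of at least 0.6 was found for 8 members and 9.94% of filtered genes, and 6 members reached 0.6 with both scores (6.41% of filtered genes). Those 6 were Dnmt1, Suv39h1, Cbx6, Ezh2, Suz12 and Chd4, of which Suv39h1 had the highest r (0.88). Suv39h2, the close relative of Suv39h1, had 0.82 with the G2/M score and 0.58 with the S score. Kmt2a, an H3K4 methyltransferase, had 0.71 and 0.49. Hdac2 had only 0.39 with the G2/M score. Chd4 (0.60) and Suz12 (0.62) were at the edge and lay under 0.6 in 5 of 12 leave-one-out values each. Without cells 3, 10 and 11, those of Chd4 (0.37), Suz12 (0.54) and Kmt2a (0.45) were all under 0.6, while Hdac5 (0.70) and Eed (0.64) were above it. None had an r of -0.6 or less, against 2.75% of filtered genes. The lowest was that of Kdm5b, an H3K4 demethylase, at -0.49, and without cells 3 and 10 it was -0.69 and that of Kdm4a -0.61. Shares of filtered genes were computed over all 12 cells only.

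**Figure D3:**
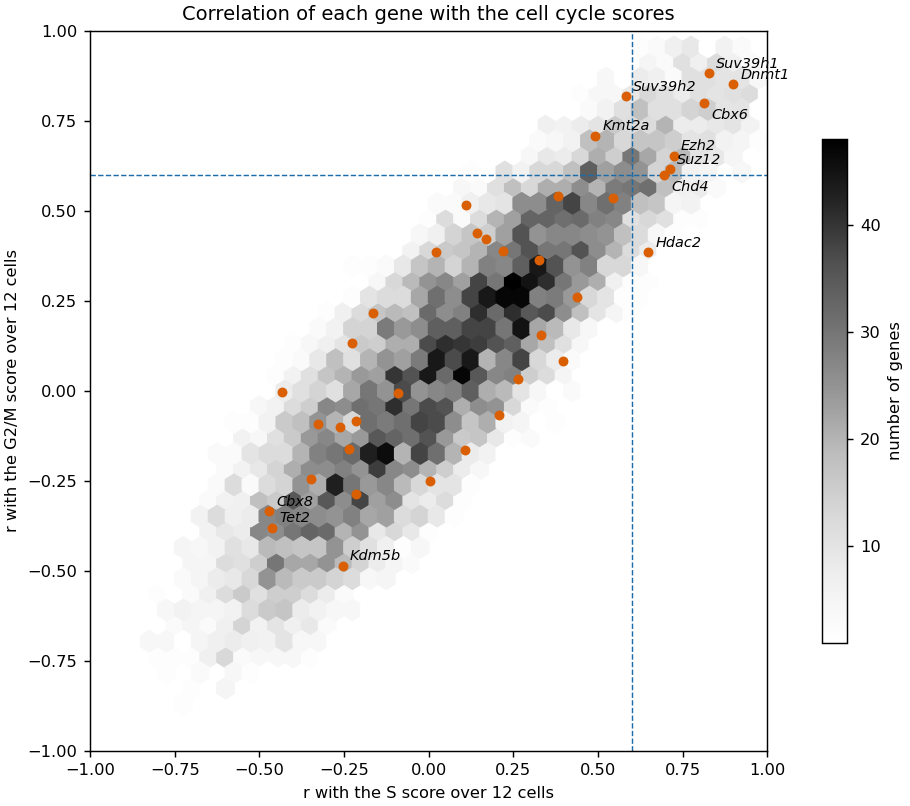
Grey hexagons count the 9701 filtered genes by their Pearson's r with the S score (x axis) and the G2/M score (y axis) over 12 cells, orange points are the 37 filtered members, and dashed lines mark 0.6. Members spread over the cloud, with Dnmt1, Suv39h1 and Cbx6 in the upper right corner and no member past -0.6 on either axis.

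Within the DNA methylation family, the maintenance enzyme was the main transcript per kb in each cell, and the de novo enzymes together exceeded it only in cell 7. As a mean per kb of exon Dnmt1 was at 7.16 CPM, Dnmt3a at 0.184 CPM and Dnmt3b at 0.114 CPM. Dnmt3a, which sets new methylation in adult tissues, had counts in 9 cells and was highest in cells 2 (45 counts, 11.1 CPM) and 7 (50 counts, 9.51 CPM). Dnmt3b, the de novo enzyme of early embryos, was counted in cells 4 and 7 only, with 7 and 28 counts. In cell 7 Dnmt1 itself was low, at 1.29 CPM per kb, so that Dnmt3a (0.571) and Dnmt3b (1.04) summed to more than it. Both de novo enzymes were counted together in cells 4 and 7 alone, at Dnmt3a shares of 34.5% and 35.4% of the pair per kb. Over pooled counts the Dnmt3a share was 59.6% (exact 95% binomial interval 50.5 to 68.6%), and in the other 7 cells with counts it was 100%. Several of these rest on few counts, 1 in cell 10 (interval 0.781 to 100%), 4 in cell 6 (16.8 to 100%) and 8 in cell 11 (34.4 to 100%).

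Among the TET enzymes, which start DNA demethylation, Tet3 was the most abundant per kb (0.966 CPM), followed by Tet2 (0.339 CPM) and Tet1 (0.0275 CPM). Tet1 was counted in 5 cells and never above 13 counts. Tet3 ran from 1.13 CPM in cell 10 through a median of 17.0 CPM to 43.2 CPM in cell 5. Tet2 showed the opposite extreme, with 25.2 CPM in cell 10, 9.55 CPM in the next cell and a median of 4.75 CPM. Cell 10 is the cell with endothelial markers, and the part of that identity in these values was not tested.

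In PRC2, which methylates H3K27, the core subunits were counted in nearly every cell, and Ezh2 had the largest spread for its level. Per kb Eed, the subunit that reads the mark, was at 18.0 CPM, Ezh2 at 9.99, Suz12 at 5.27, Ezh1 at 2.21 and the accessory factor Jarid2 at 0.664 CPM. Eed had counts in each cell, from 16.2 CPM in cell 7 through a median of 53.6 CPM to 163 CPM in cell 2. Ezh1, the enzyme known from resting cells, had no counts in cell 8 and 31.3 CPM in cell 12, and its r with the S score was -0.21. Jarid2 also had none in cell 8 and was highest in cell 11, at 19.3 CPM.

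The balance of Ezh1 and Ezh2 differed from cell to cell. Over pooled counts Ezh1 made up 18.9% of the pair per kb (exact 95% binomial interval 17.8 to 20.0%). The mean of the 12 single-cell shares was 33.7%, well outside that interval, which covers counting error and not the spread between cells. In single cells its share was 0% in cell 8, 3.56% in cell 2 and 7.15% in cell 1, and at the other end 38.3% in cell 12, 50.04% in cell 7 (interval 43.5 to 56.6%), 87.9% in cell 3 and 100% in cell 10. With the length of the longest transcript the pooled share was 14.7%, and shares of single cells were not computed with that length. Per kb of exon, Ezh1 was above Ezh2 in cells 3 and 10, those with haematopoietic and endothelial markers, and level with it in cell 7. These are 3 of the 4 cells with the lowest S scores. In cell 11, the lowest of all, the share was 32.2%.

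Among the listed subunits of PRC1, which ubiquitinates H2A, Bmi1 and Rnf2 were the highest per kb. Per kb Bmi1 was at 21.4 CPM and Rnf2, the main ubiquitin ligase, at 11.1 CPM, while the second ligase Ring1 was at 1.17 CPM. Rnf2 made up 90.5% of the ligase pair (interval 89.2 to 91.6%) and was the larger share in all 12 cells. Bmi1 varied little, from 34.3 CPM in cell 6 through a median of 94.0 CPM to 123 CPM in cell 11. Of the Cbx readers, Cbx6 (2.02 CPM per kb) and Cbx8 (1.96) were the main forms. Cbx2 was counted in 7 cells and stood at 14.3 CPM in cell 9 against at most 1.99 CPM elsewhere. Cbx7, a reader best known from embryonic stem cells, was counted in 6 cells and stood at 6.76 CPM in cell 10 against at most 1.68 CPM elsewhere. Cbx8 had no counts in cell 5 and 18.4 CPM in cell 9.

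All 6 histone demethylases were counted in each cell. Kdm1a, which removes H3K4 methylation as part of corepressor complexes, was highest per kb at 10.2 CPM, with 110 CPM in cell 7, 64.2 CPM in the next highest cell and 25.8 CPM in the lowest, cell 3. Kdm5a (3.92 CPM per kb) exceeded its relative Kdm5b (1.92), with a share of 66.8% of the pair over pooled counts. Per kb of exon, cell 12 was the only one with more Kdm5b than Kdm5a, at a Kdm5a share of 40.6%. With the length of the longest transcript the pooled Kdm5a share was 57.8%, and shares of single cells were not computed with that length. Kdm5b itself was lowest in cell 8, at 1.82 CPM, and reached 67.8 CPM in cell 11. Kdm6b, an H3K27 demethylase that opposes PRC2, was at 3.41 CPM per kb, with a range of 11.9 CPM in cell 2 to 52.5 CPM in cell 7. Kdm4a and Kdm2b were low, with medians of 7.38 and 7.66 CPM, and each had 1 high cell, at 35.2 CPM in cell 7 and 31.1 CPM in cell 12.

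Among the methyltransferases of H3K4 and H3K9, Ehmt2 was highest per kb (7.22 CPM), followed by Suv39h1 (5.11), Ehmt1 (2.87), Kmt2a (1.63), Suv39h2 (1.57) and Kmt2d (0.937). Ehmt1 and Ehmt2 act as a heterodimer that writes H3K9 methylation in euchromatin, and Ehmt1 made up 28.2% of the pair per kb. Cells 4 and 8 went the other way, with Ehmt1 shares of 52.8% and 67.4%. Ehmt2 was at 6.502 CPM in cell 12, its lowest, and at 14.4 CPM in the next. Suv39h1 made up 77.2% of its pair with Suv39h2 (interval 75.1 to 79.2%) and was the smaller share only in cell 3, where 8 and 9 counts were found. Suv39h2, of whose exonic bases 9.98% lie in other genes (mostly Dclre1c), had no counts in cells 7, 10 and 12 and was highest in cell 9, at 26.0 CPM. Kmt2a ranged from 5.77 CPM (cell 11) to 77.4 CPM (cell 5), and Kmt2d from 3.16 CPM (cell 12) to 36.7 CPM (cell 9). The Kmt2a share of that pair was 61.7% over pooled counts but was 18.9% in cell 10, 19.9% in cell 11 and 46.5% in cell 7.

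The class I deacetylases held the highest members of the list. Per kb Hdac2 was at 53.2 CPM (percentile 91.6 of genes with a count), Hdac3 at 24.1 CPM and Hdac1 at 13.9 CPM. Hdac1 and Hdac2 form the same corepressor complexes, and Hdac1 made up 20.2% of the pair (interval 19.5 to 20.8%), with Hdac2 the larger share in all 12 cells. Hdac1 was the steadiest member, with a mean of 47.9 ± 9.97 CPM (SD over the 12 cells), and was lowest in cell 7 (28.9 CPM) and highest in cell 12 (61.9 CPM). Hdac2, at 238 ± 111 CPM, ranged much more. Hdac3, the catalytic subunit of the NCoR complexes, was at 34.0 CPM in cell 10, at 68.3 CPM in the next lowest cell and at 151 CPM in cell 12.

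Of the class IIa deacetylases, Hdac7 was highest per kb (7.27 CPM), then Hdac5 (2.75), Hdac4 (1.60) and Hdac9 (0.150). Hdac7, known for its role in endothelial cells, was at 75.9 CPM in cell 10, below the 93.7 CPM of cell 5, and had a median of 53.1 CPM. Hdac4 shares 22.4% of its exonic bases with an antisense gene, Gm26720, so its range of 7.27 to 44.6 CPM may hold reads of that gene. Hdac9 had counts in 8 cells and reached 8.30 CPM in cell 11. Sirt1, a NAD-dependent deacetylase, was at 25.8, 28.9, 20.0, 45.8, 11.7, 5.84, 68.7, 7.27, 61.8, 0.376, 1.26 and 78.7 CPM in cells 1 to 12. Its lowest value, in cell 10, rests on 2 counts, and cells 7, 9 and 12 were the highest.

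The remodellers and acetyltransferases were counted in all 12 cells. Per kb Smarca4, the main ATPase of the BAF complex, was at 17.4 CPM, its core partner Smarcb1 at 12.99, Chd4 at 6.78 and the alternative ATPase Smarca2 at 2.73 CPM. Smarca4 ran from 48.8 CPM in cell 3 through a median of 114 CPM to 187 CPM in cell 10, and Smarcb1 from 57.3 to 161 CPM. Smarca2 made up 13.6% of the ATPase pair and was the smaller share in all 12 cells. With the length of the longest transcript in place of all exons its share was 27.2%, and it was 25.8% of the reads of the pair with no length correction. Crebbp (3.85 CPM per kb) exceeded Ep300 (1.05), both acetyltransferases that act at enhancers, and Ep300 made up 21.2% of the pair (interval 19.9 to 22.5%) and less than Crebbp in every cell.

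**Figure D4:**
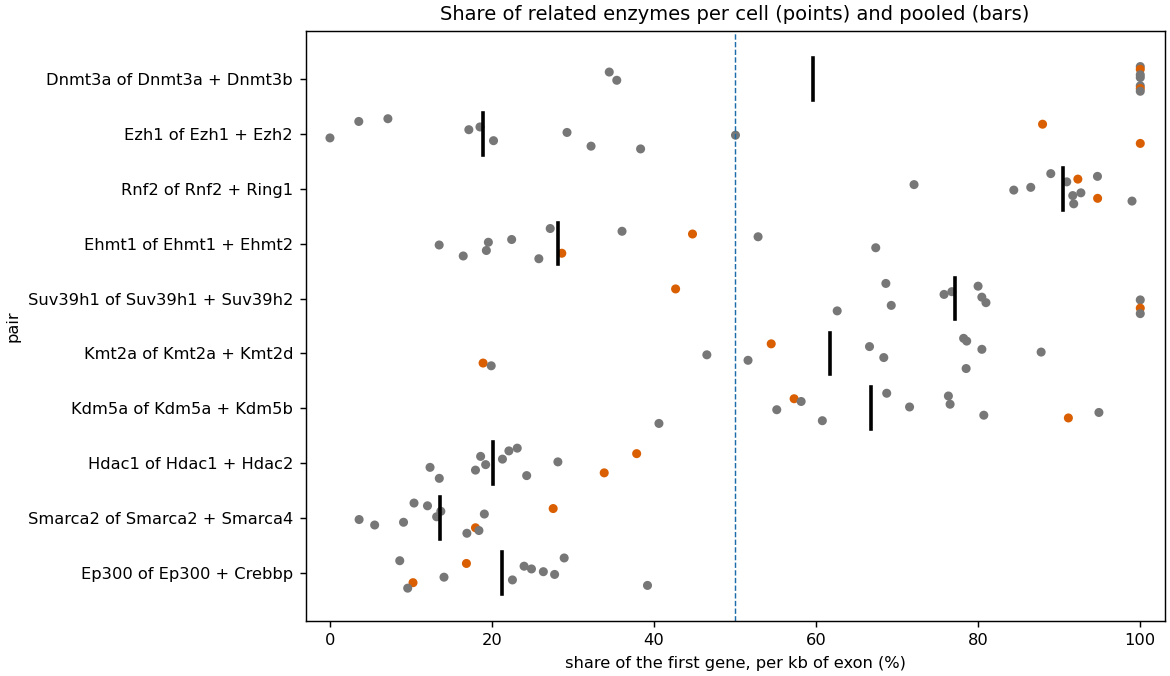
Share of the first gene of each of 10 related pairs, per kb of exon and in percent (x axis), with 1 point per cell (cells 3 and 10 in orange), a black bar for pooled counts and a dashed line at 50%. Rnf2 lies right of the line and Hdac1, Smarca2 and Ep300 left of it in all 12 cells, whereas Ezh1 runs from 0 to 100%.

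The spread between cells was compared with that of genes at the same level, as a residual, the log10 of the squared coefficient of variation less the median of that quantity among genes of near-equal mean CPM. The median residual was 0.01 over the 37 filtered members and 0.00 over all filtered genes, and 19 members lay above 0, against 49.8% of all genes. The share of members above 0 was thus close to that of all genes. Single members differed widely. Sirt1 (0.49), Dnmt1 (0.48), Ezh2 (0.45), Suv39h1 (0.29), Kmt2a (0.28), Suv39h2 (0.22), Hdac2 (0.19), Tet2 (0.18), Smarca2 (0.18) and Kdm5b (0.15) had the largest residuals. Tet2 passed the filter only through its high value in cell 10, so its residual rests on that cell. Of these 10, Dnmt1, Ezh2, Suv39h1 and Hdac2 also belong to the group with an r of at least 0.6 with the S score, whereas Sirt1 had an r of 0.44. Without cells 3 and 10 the residual of Ezh2 was 0.25, and those of Dnmt1 and Sirt1 were 0.48 and 0.44. Without cell 11 as well they were 0.28, 0.44 and 0.32, and the r of Sirt1 with the S score was -0.04. Hdac1 had the smallest residual of the members (-0.73), at percentile 0.66 of all filtered genes, followed by Crebbp (-0.37), Smarcb1 (-0.34), Chd4 (-0.27) and Hdac3 (-0.26).

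**Figure D5:**
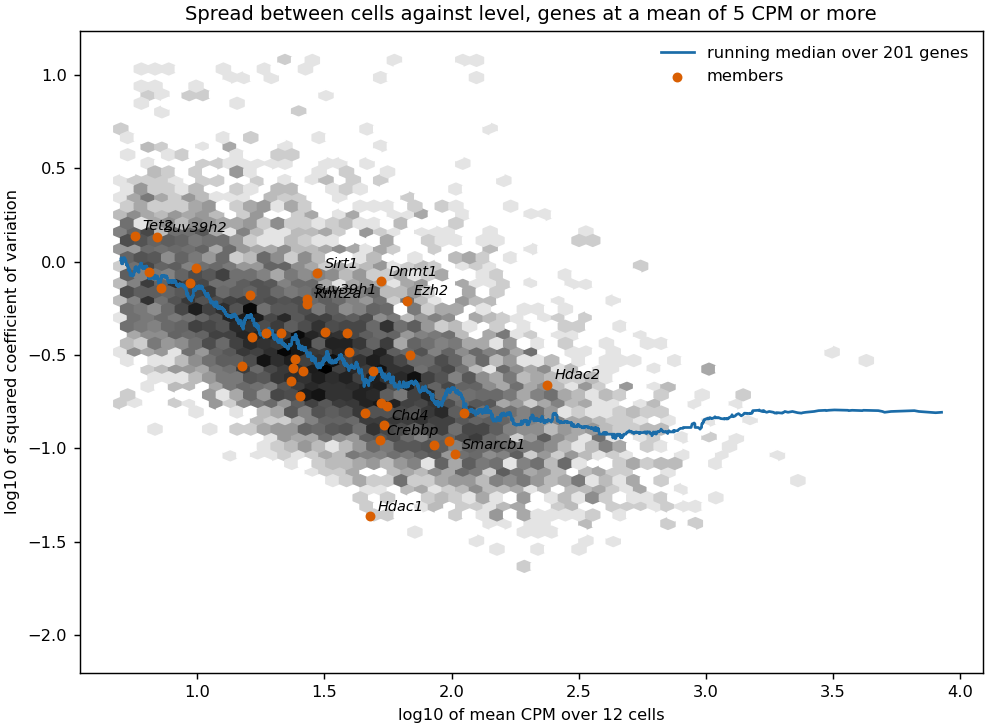
Spread between cells, as log10 of the squared coefficient of variation (y axis), against log10 of mean CPM over 12 cells (x axis) for 9701 filtered genes (grey hexagons, darker with more genes), with the running median in blue and the 37 filtered members in orange. Sirt1, Dnmt1 and Ezh2 lie above the line and Hdac1 lies far below it.

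The 7 members with a mean under 5 CPM were too low for these measures, namely Dnmt3a, Dnmt3b, Tet1, Ring1, Cbx2, Cbx7 and Hdac9. Ring1 was the only one of them with a count in each cell, at a median of 2.94 CPM and at most 9.75 CPM. Among the other 37, members were compared pair by pair over the 12 cells. The median r of 666 pairs was 0.11, and that over all pairs of filtered genes was 0.03. An r of at least 0.8 was found for 6 pairs (0.901%), against 0.327% of all pairs. These were Ezh2 with Cbx6 (0.91), Ezh2 with Suz12 (0.84), Dnmt1 with Suv39h1 (0.84), Ezh1 with Kdm5b (0.83), Kdm5b with Hdac4 (0.82) and Jarid2 with Kdm5a (0.81). Without cells 3 and 10 the first and the second of these were 0.74 and 0.72, and the other four ran from 0.79 to 0.82. Without cell 11 as well, Jarid2 with Kdm5a was at 0.73 and Dnmt1 with Suv39h1 at 0.78. Other pairs passed 0.8 only when cells 3 and 10 were left out, among them Cbx6 with Suv39h1 (0.92), Dnmt1 with Ezh2 (0.88) and Tet3 with Crebbp (0.86). Strongly negative pairs then included Eed with Kdm1a (-0.89) and Ehmt2 with Hdac2 (-0.86). The share of all pairs at 0.8 was not computed for fewer cells.

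The extreme values were spread over several cells. Cell 12 held the most highest values, 7 of the 37 filtered members (18.9%) against 8.42% of all filtered genes, among them Hdac2, Sirt1 and Kdm2b. In cell 3, 9 of the 37 filtered members were at their lowest value of the 12 cells, among them Dnmt1, Suz12, Suv39h1, Hdac2, Smarca4 and Crebbp, or 24.3%, while 14.3% of all filtered genes were lowest there, and no member was highest. In cell 8, 6 members were lowest (16.2% against 12.0%). In cell 10, 4 members were highest (Tet2, Smarca2, Smarca4 and Crebbp, of which Tet2 passed the filter only through that cell), against 12.2% of all filtered genes, a share near that background, and 5 were lowest (13.5% against 17.1%). The part of the cell type markers of these cells, cell 12 included, in those values was not tested.

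A fixed list of 139 other chromatin genes was read in the same way, of which 133 were in the table. Counts in all 12 cells were found for 97 of them, and the median level was 2.64 CPM per kb. The highest per kb were Rbbp7, a histone chaperone shared by PRC2 and NuRD, at 178 CPM, Yaf2, a PRC1 partner, at 83.1 CPM, and Mbd3, the NuRD subunit, at 65.6 CPM. Fewer than 3 cells had counts of Kdm4d, Actl6b, Chd5, Prdm16 and Smyd1, and Kdm4d and Actl6b had none. Of 113 such genes that passed the filter and are in neither score list, 10 had an r of at least 0.6 with the S score and 10 with the G2/M score, or 8.85% each, near the 8.76% and 9.94% of all filtered genes.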

How the data were processed

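Messenger RNA of 12 single cultured CPCs was copied with the Smart-Seq v4 kit, which covers whole transcripts, and sequenced from Nextera XT libraries. Per the submitters' notes and the study's methods, the authors mapped reads to mm10 with STAR 2.5.2b, kept uniquely mapped reads and deposited raw read counts per gene and cell. The counting program, its annotation and its strand rule are not given in the sources used here, so overlapping genes can gain reads and close copies can lose them.

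CPM was computed from cell totals (3453708 to 5690184 counts). GENCODE vM21, which uses the same build, gave exonic lengths and gene positions for 98.4% of symbols. Filtered genes had a mean of at least 5 CPM and counts in at least 3 cells. Scores and correlations used log2(CPM + 1). Intervals were exact, at a level of 95%. Members and lists were chosen with earlier results of these data known, and motif letters and pairs were fixed with them. By rule any of the 44 members could be named, with fuller values for those with the 10 largest residuals or correlations, those missing from a cell and both genes of each pair. The rule asked for every cell's value of these, but the text prints all 12 for a few and selected cells for the rest, and the heat map holds all values. Scaling was varied with TMM factors (edgeR 4.0.16) and median-ratio size factors (DESeq2 1.42.0), and pseudocount, filter, length and cells were varied too. The steps were tested on simulated data. No library pair was a duplicate (chi-square over degrees of freedom at least 42.3 in 66 pairs). Scripts ran in R 4.3.3 and in Python 3.11.15 with scipy 1.17.1, pandas 2.3.3 and numpy 2.4.6.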

Additional observations from a re-analysis of the deposited data

How the results depend on the processing

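Of 127 alternatives over 17 results (10 of them shares within a pair), 121 left the value within a limit and 6 did not, and none turned a pair around. The limit was a factor of 1.5 for counts, and the SD over cells for levels, sums and pair shares. For the median residual it was a standard error from leaving out each cell in turn, 0.072. The limit for shares is wide. The Dnmt3a share was 59.6% pooled and 85.5% as a mean over cells, within an SD of 28.7. At 10 CPM or more, 15 members were present in all 12 cells instead of 33, a stricter limit by construction. The median level per kb was 3.91 CPM with the longest transcript and 25.7 CPM with no length correction. The median dispersion residual was -0.10 at a mean of at least 20 CPM; the cause was not tested. The Smarca2 share was 25.8% with no length correction and 27.2% with the longest transcript, a setting chosen after the data were seen. Leaving out each cell in turn, likewise added later, gave 33 to 35 members detected, a level of 2.53 to 2.89 CPM per kb, a residual of -0.0741 (without cell 12) to 0.0127, 6 to 11 members at an r of at least 0.6 with the S score (11 without cell 12) and 6 to 10 with the G2/M score. Leaving out cells 3, 10 and 11 together, also chosen after the data were seen, gave 7 members with each score. Shares of all filtered genes at 0.6 were computed over all 12 cells only, so counts over fewer cells have none beside them. The Ezh1 share was 33.7% as a mean over cells, within its wide spread. No paired analysis was possible because the series has 1 group. The number of cells limits every correlation, and depth limits genes near 3 counts.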

Other observations

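Outside the members, the chromatin genes that went with the S score, named here after their values were seen and at a share close to that of all filtered genes (8.85% against 8.76%), included Smarca5, the ATPase of ISWI remodellers that space nucleosomes, with an r of 0.79 over 12 cells, Prmt5, an arginine methyltransferase, with 0.72, Sin3a, a scaffold of Hdac1 and Hdac2, with 0.71, and Rbbp7 with 0.67. Uhrf1, which brings Dnmt1 to newly copied DNA, and the remodeller Hells had 0.91 and 0.90, but both are genes of the S list itself, so these values follow in part from the definition. The heterochromatin protein Cbx5, a gene of the G2/M list, had 0.93 with the S score. Kdm4b, an H3K9 demethylase, was alone among the 116 filtered genes of the list of other chromatin genes with an r of -0.6 or less with the S score, at -0.62. Smarcd3, a BAF subunit of heart and muscle, had -0.73 with the G2/M score and reached 26.2 CPM in cell 7.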
